A study of Mus musculus with 6 samples.

Results

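The 39 genes described here encode 19 Wnt ligands and 20 members of the Fgf family, most of them secreted signals. They were taken as named ligand genes, and each was measured over all 2 kb tiles that overlapped its NCBIM37 bounds extended by 5 kb on both sides. All 39 were found in the annotation, among 22367 protein-coding genes that were measured in the same way. H3K9me2, H3K27me3 and H3K9me3 were profiled by ChIP-seq in mouse embryonic stem cells (ESCs), in 6 libraries, 1 for each of the 3 marks in each of 2 genotypes. With 1 library per mark and genotype, the differences below rest on single libraries, without replicates, and were not tested.

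Both genotypes lack Dicer, the nuclease that makes small interfering RNAs and microRNAs. The Dicer KO cells carry a constitutive Dicer deletion made by CRISPR in ESCs with loxP sites at both Dnmt1 alleles (Dnmt1 loxP/loxP), and they still have Dnmt1, the maintenance DNA methyltransferase. In the Dicer KO/Dnmt1 cKO, Dnmt1 was deleted as well, by Cre induced with tamoxifen (4OHT), so the comparison asks how the marks differ once Dnmt1 is lost in cells without Dicer. The targeted lines were grown from single-cell colonies, the number of clones behind these libraries is not given, and neither the labels nor the methods give the day after deletion for them. The labels name the background strain E14, whereas the methods derive the line from C57BL/6 ESCs. Cells were kept in serum and LIF, with or without feeder cells, and were grown on gelatine before cross-linking. Dicer-proficient cells were not analysed here, so nothing below concerns the loss of Dicer.

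Wnt proteins are lipid-modified glycoproteins that bind Frizzled receptors. With an Lrp co-receptor they stabilise β-catenin, while several members act mainly through β-catenin-independent routes. Most Fgf proteins are secreted and activate tyrosine kinase receptors with heparan sulphate as cofactor, while the endocrine members act as hormones with Klotho proteins. Of the genes measured here, Fgf11, Fgf12 and Fgf14 encode proteins that stay inside the cell. In ESCs, Fgf4 is the ligand that primes differentiation through Erk, while many other ligand genes are silent until later. H3K27me3, laid down by Polycomb repressive complex 2, is known for covering CpG-rich starts of such silent developmental genes, whereas H3K9me2 and H3K9me3 are known mainly from broad silent domains and from repeats.

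The 6 libraries held between 16834940 and 27162045 reads, and the median tile held between 13 and 18. A level is the mean number of reads per tile divided by the mean over all tiles of that library, so that 1 is the genome mean. A change compares the genotypes on the log2 scale, each library divided by its total reads, and is positive where the Dicer KO/Dnmt1 cKO is higher. The 95% intervals cover counting error only, and they are too narrow where reads are PCR copies. A value is called higher or lower beyond counting error where the interval of its change leaves out 0. Over Dnmt1 the H3K27me3 level was 0.295 in Dicer KO cells and 0.348 in Dicer KO/Dnmt1 cKO cells, and over Dicer1 it was 0.507 in Dicer KO cells and 0.542 in Dicer KO/Dnmt1 cKO cells. The changes over Dnmt1 were 0.54 (95% interval 0.24 to 0.86) in H3K9me2, 0.24 (95% interval −0.08 to 0.56) in H3K27me3 and −0.13 (95% interval −0.41 to 0.15) in H3K9me3, and repressive marks over these genes do not test whether they were deleted. The 8 ESC genes, such as Pou5f1 and Nanog, had a median H3K27me3 level of 0.405 in the Dicer KO and none reached 2, whereas 4 of 6 fibroblast genes, a list for feeder cells, did. Of the fibroblast genes, Col1a1 and Thy1 were lower in H3K27me3 beyond counting error and Col1a1 was 1.5-fold higher in H3K9me2. Of the ESC genes, Nanog was 1.5-fold lower in H3K9me3. All 3 ESC genes with at least 200 H3K27me3 reads in both libraries together had a negative change in that mark, 1 of them beyond counting error. Repressive marks do not measure expression, and the part of feeder cells in the results was not tested.

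Start sites with much and with little H3K27me3 are shown first by their sequence. The 200 bases upstream of the annotated start are shown for the member of each family with the highest and the lowest H3K27me3 level within 5 kb of the start, since the mark is known to follow CpG-rich sequence. They were read from the NCBIM37 genome on the strand of the gene, written 5′ to 3′, with each CpG dinucleotide in capitals. Wnt11 (chr7:105983422-105983621, plus strand) and Wnt9a (chr11:59120230-59120429, plus strand) are the highest and the lowest of the Wnt genes. Fgf9 (chr14:58689184-58689383, plus strand) and Fgf22 (chr10:79217621-79217820, plus strand) are the highest and the lowest of the Fgf genes.
Wnt11: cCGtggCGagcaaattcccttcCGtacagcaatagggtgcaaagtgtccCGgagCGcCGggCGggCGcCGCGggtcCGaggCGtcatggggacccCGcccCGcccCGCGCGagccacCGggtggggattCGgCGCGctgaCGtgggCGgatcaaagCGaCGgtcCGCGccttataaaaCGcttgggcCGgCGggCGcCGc
Wnt9a: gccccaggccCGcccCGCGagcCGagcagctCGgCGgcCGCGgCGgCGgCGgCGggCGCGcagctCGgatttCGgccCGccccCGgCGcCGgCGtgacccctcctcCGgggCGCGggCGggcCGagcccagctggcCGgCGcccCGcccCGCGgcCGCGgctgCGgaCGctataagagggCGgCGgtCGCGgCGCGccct
Fgf9: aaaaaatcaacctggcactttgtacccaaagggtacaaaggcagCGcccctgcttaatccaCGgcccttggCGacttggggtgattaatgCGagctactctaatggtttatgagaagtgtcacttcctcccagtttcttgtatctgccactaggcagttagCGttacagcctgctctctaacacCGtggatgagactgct
Fgf22: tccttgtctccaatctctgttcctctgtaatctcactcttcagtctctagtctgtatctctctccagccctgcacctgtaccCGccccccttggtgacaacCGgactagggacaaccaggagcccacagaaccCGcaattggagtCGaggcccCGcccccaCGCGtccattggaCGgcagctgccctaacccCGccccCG

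These windows show that a CpG count alone did not order the members. The upstream sequence of Wnt11 held 32 CpGs, a number reached by 2.18% of protein-coding genes, and its start had a level of 7.19 in Dicer KO cells (883 reads) against 5.12 in Dicer KO/Dnmt1 cKO cells (492 reads). Wnt9a held even more, 41 CpGs, which 0.121% of genes reached, and had 2.03 in Dicer KO cells (249 reads) against 1.63 in Dicer KO/Dnmt1 cKO cells (157 reads). Fgf9 held 6 CpGs and Fgf22 held 10, against a median of 7 over protein-coding genes. Fgf9, which is known for roles in testis and lung, had a start level of 6.96 in Dicer KO cells (855 reads) against 4.64 in Dicer KO/Dnmt1 cKO cells (446 reads). The Fgf9 tile that holds the start shown had 8.80 in Dicer KO cells and 4.87 in Dicer KO/Dnmt1 cKO cells. The densest Fgf9 tile, with a mean level of 10.5 over both genotypes, lay 4 kb downstream and holds another annotated start. The sequence shown for Fgf9 is thus not that of its densest tile. Fgf22, known for organising synapses, stood below the genome mean, at 0.627 in Dicer KO cells (77 reads) against 0.572 in Dicer KO/Dnmt1 cKO cells (55 reads).

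H3K27me3 was the mark that set the ligand genes apart from other genes. The median level over the 39 windows was 2.30 in Dicer KO cells and 1.97 in Dicer KO/Dnmt1 cKO cells, against 0.733 and 0.759 over all protein-coding genes. In the Dicer KO, 23 of 39 members had a level of at least 2, against a background of 10.4% of protein-coding genes. In the Dicer KO/Dnmt1 cKO, 19 of 39 did, against 8.83%, as Wnt2b, Wnt3a, Wnt10a and Fgf11 were now below 2. The Wnt genes stood higher, with 14 of 19 at this level in the Dicer KO and a median of 2.54, than the Fgf genes, with 9 of 20 and a median of 1.86. The ranges overlapped widely, from 1.53 to 5.69 for Wnt genes and from 0.614 to 4.97 for Fgf genes.

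**Figure D1:**
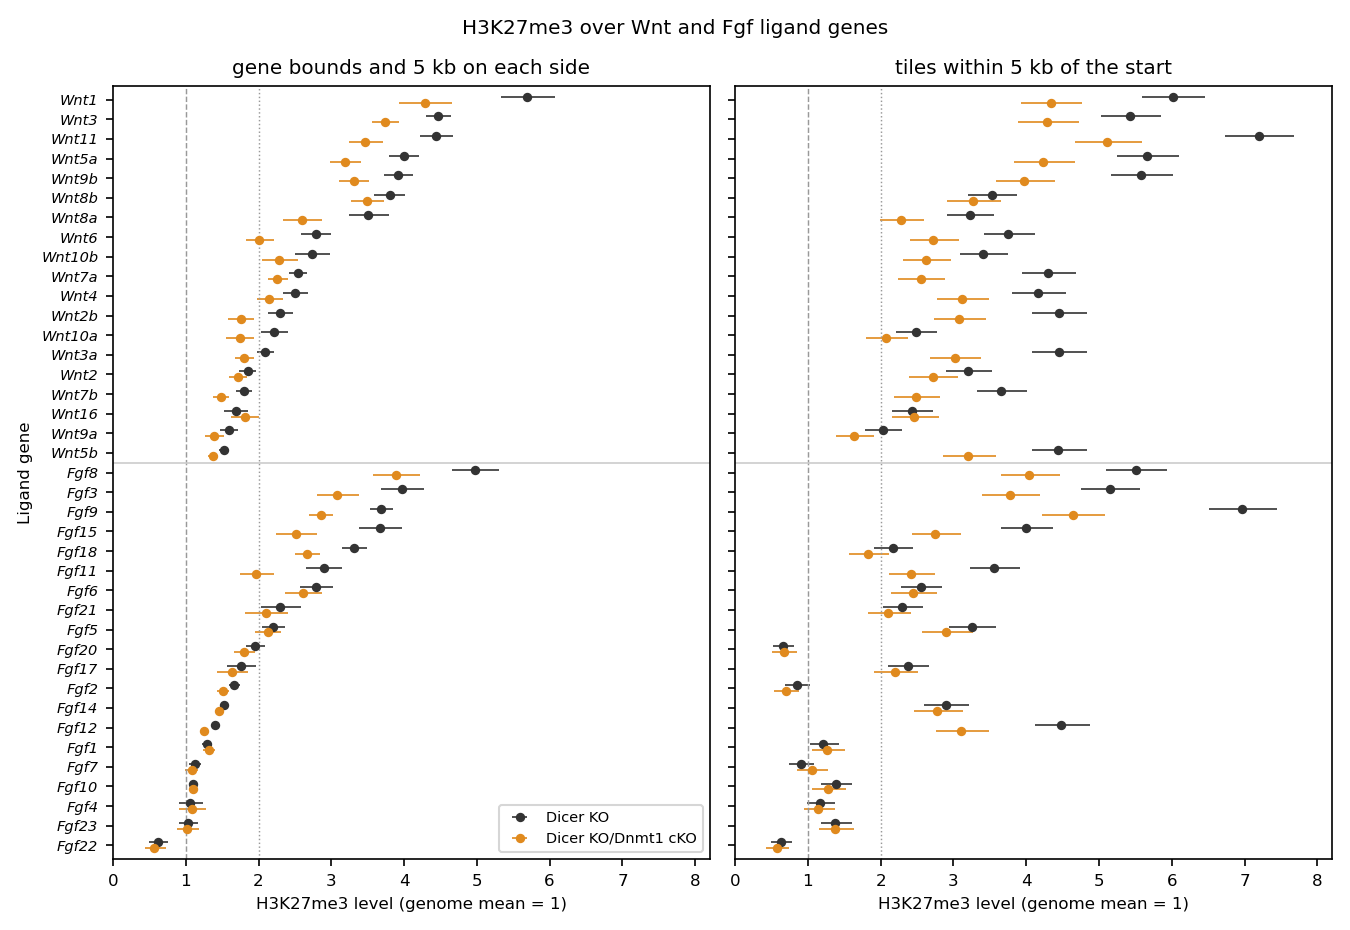
H3K27me3 levels of the 39 ligand genes (x axis, mean reads per tile relative to the genome mean of the library) over the extended gene window (left) and within 5 kb of the start (right), with Wnt genes above the grey line and Fgf genes below it. Points are single libraries, dark for the Dicer KO and orange for the Dicer KO/Dnmt1 cKO, bars are 95% counting intervals, the dashed line is the genome mean and the dotted line a level of 2. All 19 Wnt genes lie above 2 at the start in the Dicer KO, whereas Fgf22 lies below 1 in both panels.

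Among the Wnt genes, Wnt1 had the highest H3K27me3 level, with 5.69 in Dicer KO cells (932 reads) against 4.28 in Dicer KO/Dnmt1 cKO cells (549 reads). Wnt1, needed for the midbrain, lies at chr15:98620288-98624268 on the plus strand. Wnt3, which is required for gastrulation, followed with 4.47 in Dicer KO cells (2561 reads) against 3.74 in Dicer KO/Dnmt1 cKO cells (1680 reads), and Wnt11, which acts mainly without β-catenin, had 4.44 in Dicer KO cells (1453 reads) against 3.47 in Dicer KO/Dnmt1 cKO cells (890 reads). The 95% intervals of Wnt3 (4.30 to 4.65) and Wnt11 (4.21 to 4.67) overlapped in the Dicer KO, so their order was not resolved, while Wnt1 lay above both. Wnt5a, Wnt9b, Wnt8b and Wnt8a came next, with levels of 4.00, 3.92, 3.80 and 3.51 in the Dicer KO. In each of these neighbouring pairs in the order, too, the intervals overlapped.

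A middle group of 7 Wnt genes had levels between 2.09 and 2.79 in the Dicer KO, in ascending order Wnt3a, Wnt10a, Wnt2b, Wnt4, Wnt7a, Wnt10b and Wnt6. Wnt2 (1.85) and Wnt7b (1.79) came below them. The lowest were Wnt5b with 1.53 in Dicer KO cells (1938 reads) against 1.37 in Dicer KO/Dnmt1 cKO cells (1366 reads), Wnt9a with 1.60 in Dicer KO cells (653 reads) against 1.38 in Dicer KO/Dnmt1 cKO cells (444 reads) and Wnt16 with 1.69 in Dicer KO cells (414 reads) against 1.81 in Dicer KO/Dnmt1 cKO cells (348 reads). Wnt5b is the longest Wnt gene, and its window of 62 tiles averages over a start with a level of 4.44. Of the 4 Wnt genes that act mostly without β-catenin, Wnt4, Wnt5a and Wnt11 reached 2 and Wnt5b did not.

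Among the Fgf genes, Fgf8 had the highest level, with 4.97 in Dicer KO cells (916 reads) against 3.89 in Dicer KO/Dnmt1 cKO cells (561 reads). Fgf8, which directs gastrulation and the patterning of the midbrain, lies at chr19:45811288-45817405 on the minus strand. Fgf3, a signal for the inner ear, had 3.97 in Dicer KO cells (731 reads) against 3.08 in Dicer KO/Dnmt1 cKO cells (445 reads), and Fgf9 had 3.69 in Dicer KO cells (2037 reads) against 2.85 in Dicer KO/Dnmt1 cKO cells (1235 reads). Fgf15, the ileal hormone that restrains bile acid synthesis, had 3.67 in Dicer KO cells (601 reads) against 2.51 in Dicer KO/Dnmt1 cKO cells (322 reads), and Fgf18, which acts in bone and cartilage, had 3.32 in Dicer KO cells (1425 reads) against 2.67 in Dicer KO/Dnmt1 cKO cells (899 reads). The intervals of Fgf3, Fgf9 and Fgf15 overlapped in the Dicer KO, so these 3 were not ordered.

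At the low end, Fgf22 had 0.614 in Dicer KO cells (88 reads) against 0.570 in Dicer KO/Dnmt1 cKO cells (64 reads), Fgf23 had 1.03 in Dicer KO cells (232 reads) against 1.02 in Dicer KO/Dnmt1 cKO cells (180 reads) and Fgf4 had 1.06 in Dicer KO cells (174 reads) against 1.08 in Dicer KO/Dnmt1 cKO cells (139 reads). Fgf23 is the phosphate hormone of bone, and Fgf4 is known as an autocrine signal of ESCs. Over their windows, Fgf23 and Fgf4 lay at the genome mean within counting error, as the intervals in the Dicer KO, 0.902 to 1.17 and 0.911 to 1.23, both included 1. Fgf22 lay below it (0.493 to 0.757). Fgf10 and Fgf7, mesenchymal signals to epithelia, had 1.10 and 1.13 in the Dicer KO.

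By subfamily, the level at or above 2 in the Dicer KO was found for both Fgf8 and Fgf18 of the Fgf8 subfamily, with Fgf17 at 1.76. In the Fgf4 subfamily Fgf5 (2.21) and Fgf6 (2.79) reached it and Fgf4 did not. In the Fgf7 subfamily 1 of 4 did, Fgf3, and in the Fgf9 subfamily Fgf9 did and Fgf20 (1.95) did not. Of the endocrine members, Fgf15 and Fgf21 (2.30) reached 2 and Fgf23 did not. Neither Fgf1 (1.30) nor Fgf2 (1.67), which lack a classical signal peptide, reached 2. Of the intracellular members, Fgf11 (2.89) did, while the sodium channel partners Fgf12 (1.40) and Fgf14 (1.53) did not. Fgf12 and Fgf14 are very long genes with windows of 149 and 355 tiles, and within 5 kb of the start their levels were 4.48 and 2.89.

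The mark was concentrated at the starts. Within 5 kb of the annotated start, 31 of 39 members had a level of at least 2 in the Dicer KO, against 15.7% of protein-coding genes, and 29 of 39 in the Dicer KO/Dnmt1 cKO, against 13.2%, without Wnt9a and Fgf18. All 19 Wnt genes were among them in the Dicer KO, as were 12 of 20 Fgf genes. In the tile that holds the start, the median level of the Wnt genes was 6.21 in Dicer KO cells and 4.37 in Dicer KO/Dnmt1 cKO cells. At 20 kb upstream it was 1.56 and 1.68. The Fgf genes had medians of 3.13 and 2.93 in the start tile, and all protein-coding genes 0.635 and 0.624.

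**Figure D2:**
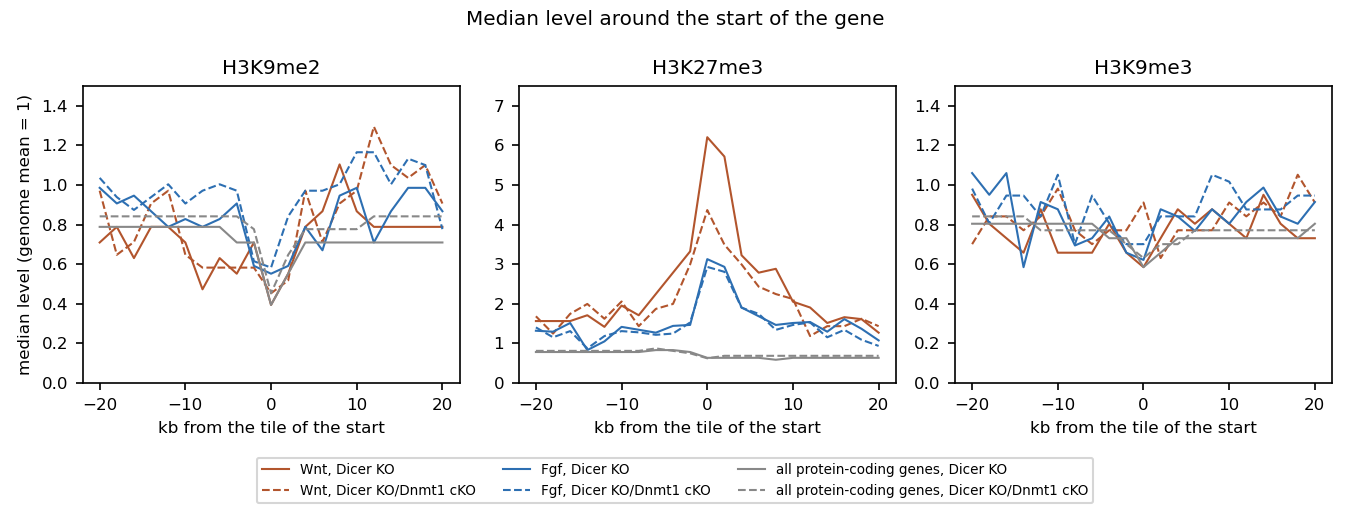
Median level (y axis, genome mean 1; the scale of the middle panel differs) of 2 kb tiles from 20 kb upstream to 20 kb downstream of the tile that holds the annotated start, for 19 Wnt genes, 20 Fgf genes and all protein-coding genes, with solid lines for the Dicer KO and dashed lines for the Dicer KO/Dnmt1 cKO. H3K27me3 peaks at the start of the ligand genes, reaching 6.21 for the Wnt genes in the Dicer KO, while H3K9me2 dips there in every set.

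The tile with most H3K27me3 reads lay within 4 kb of the annotated start in 17 of 19 Wnt genes and in 13 of 20 Fgf genes. Counting every annotated transcript start of the gene, these were 18 and 17. In Fgf14, the densest tile lay 484 kb into the gene, in a tile that holds the start of a shorter transcript, and its mean level over both genotypes was 6.55. In Fgf10 it lay 44 kb, and in Fgf2 36 kb, downstream of the first start and again held another annotated start. In Fgf20 it lay 22 kb downstream and 2 kb from a further start, with a mean level of 4.66, although the first start of Fgf20 had only 0.652. In Wnt8b it lay 20 kb downstream, where no Wnt8b start is annotated. The windows of 15 members, among them Wnt8b (Sec31b) and Fgf20 (Efha2), also overlapped other protein-coding genes, whose part in these levels was not tested.

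Over 21 tiles from 20 kb upstream to 20 kb downstream of the start, the profile most like that of Wnt1 in the Dicer KO was that of Fgf8, with a Pearson r of 0.78. Fgf17 and Wnt3a followed, each with 0.76. For Fgf8 the nearest profiles were those of Wnt11 with 0.89, Fgf14 with 0.86 and Wnt2 with 0.85. These values describe single libraries, and all profiles share the peak at the start and the depth of the library.

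CpG content was compared with the mark over the 1 kb on either side of the start. The observed over expected number of CpGs was at least 0.6 at 17 of 39 members (43.6%), made up of 11 Wnt and 6 Fgf genes, and at 33.8% of protein-coding genes. Of these 17 members, 16 had a start level of at least 2 in the Dicer KO, with a median of 4.30. The exception was Fgf20 at 0.652. Of the 22 members under 0.6, 15 reached 2, with a median of 2.52. Over all protein-coding genes, 16.9% of CpG-rich starts and 15.1% of the others reached 2, and the medians were the other way round, 0.472 at CpG-rich starts and 0.937 at the others. Fgf4 (0.598) and Fgf3 (0.592) fell just short of the limit and Wnt11 (0.610) and Wnt6 (0.616) just passed it. Across the 39 members, which share the same libraries, Spearman's rho between CpG content and start level in the Dicer KO was 0.38. Over 22367 protein-coding genes it was −0.20, of the opposite sign.

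Fgf3, Fgf4 and Fgf15 lie next to each other on chromosome 7, within 17.0 kb and 31.3 kb of one another. They were picked as an example once their values were known. Fgf3 (chr7:152023988-152030341) and Fgf15 (chr7:152082437-152086858) had high H3K27me3, with window levels of 3.97 and 3.08 and of 3.67 and 2.51 in the 2 genotypes, and Fgf4 (chr7:152047291-152051148) between them had 1.06 and 1.08. The densest tile of Fgf3 had a level of 8.16 in Dicer KO cells and 4.49 in Dicer KO/Dnmt1 cKO cells. The tile with the Fgf15 start had 7.53 and 5.24, while the tile with the Fgf4 start had 2.39 and 2.00, and the next tile of Fgf4 1.17 and 1.19. The level near 1 of the Fgf4 window is thus an average over its start and the flanks. Another neighbouring pair also differed, Fgf6 with 2.79 and 2.61 and Fgf23 with 1.03 and 1.02 in the 2 genotypes. The adjacent pair Wnt9b and Wnt3 was high throughout, with 3.92 and 3.31 and with 4.47 and 3.74. Wnt6 and Wnt10a shared 3 tiles, the only tiles shared by members.

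**Figure D3:**
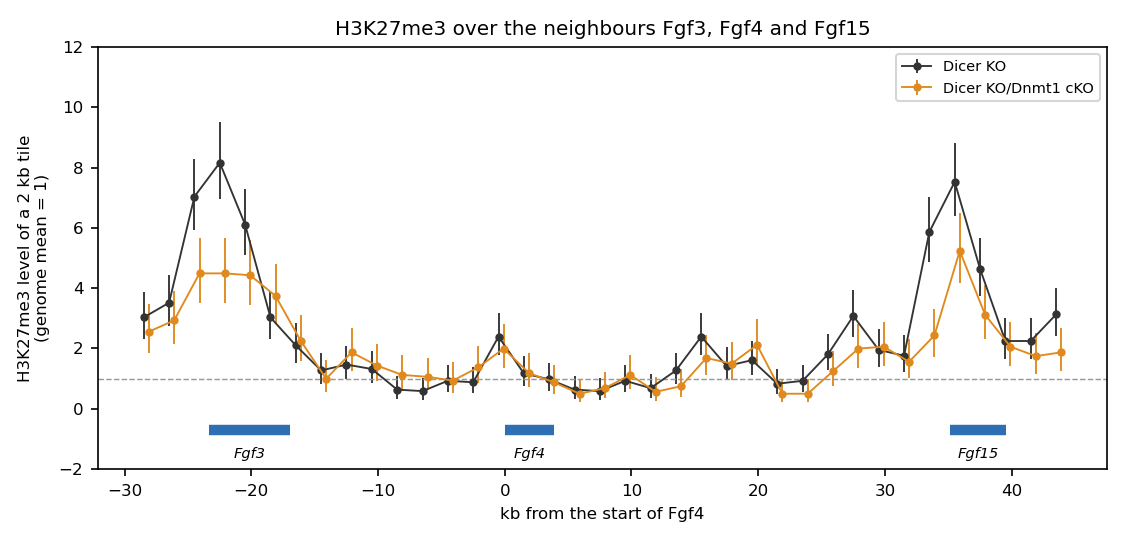
H3K27me3 level of each 2 kb tile (y axis, genome mean 1, dashed line) against the distance of the tile's centre from the start of Fgf4 (x axis, kb; the points of the 2 genotypes are set slightly apart), with 95% counting intervals and the genes drawn as bars. Peaks over Fgf3 and Fgf15 flank Fgf4, where the tile of the start has 2.39 in Dicer KO cells and 2.00 in Dicer KO/Dnmt1 cKO cells.

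With Dnmt1 deleted, H3K27me3 over the ligand genes was lower. Pooled over the tiles of all Wnt genes, the level was 2.65 in Dicer KO cells and 2.24 in Dicer KO/Dnmt1 cKO cells, a change of −0.25 (95% interval −0.28 to −0.21). Over the Fgf genes it was 1.68 in Dicer KO cells and 1.53 in Dicer KO/Dnmt1 cKO cells, a change of −0.14 (95% interval −0.16 to −0.11). Within 5 kb of the starts the changes were larger, −0.42 (95% interval −0.47 to −0.38) for Wnt and −0.31 (95% interval −0.37 to −0.25) for Fgf genes. The difference of the Wnt minus the Fgf change was −0.11 (95% interval −0.15 to −0.07, counting error only). The long genes Fgf12 and Fgf14 supply 149 and 355 of the 881 Fgf tiles, and without them the Fgf change was −0.19. Each change compares shares of the total reads of a library, so it does not measure the absolute amount of the mark. In bulk cells, fewer cells with the mark, less of it per cell and a larger share of reads elsewhere in the genome cannot be told apart. Whether the single libraries differed in their share of background reads was not tested.

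Of the 38 members with at least 200 reads in both libraries together, 35 had a negative change, with a median of −0.21 against 0.03 over all protein-coding genes. No member changed by 1.5-fold in either direction, against backgrounds of 0.535% lower and 1.02% higher. Beyond counting error, 25 of 38 members were lower, 16 of 19 Wnt and 9 of 19 Fgf genes, against 13.0% of protein-coding genes. None was higher, against 17.7%. Over all genes with enough reads, 7408 of 17022 had a negative change, but this share rose with the level. It was 56.5% of protein-coding genes at a mean level from 1 to 2, 83.6% from 2 to 4 and 89.2% at 4 or more. Of the members, 14 of 17, 18 of 18 and 3 of 3 in these bands had a negative change. By group, the 4 Wnt genes that act mostly without β-catenin and the 3 intracellular Fgf genes measured here were lower beyond counting error. So were 2 of 3 measured in the Fgf8 subfamily, 1 of 3 endocrine Fgf genes and 0 of 3 in the Fgf4 subfamily. These calls depend on the number of reads as well as on the size of the change. Fgf14, with 11078 and 8292 reads in the 2 genotypes, was called at −0.07. Fgf6, with 571 and 418 reads, was not called at −0.10.

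The lowest change was that of Fgf11, whose reads went from 533 to 284 and whose level was 2.89 in Dicer KO cells and 1.97 in Dicer KO/Dnmt1 cKO cells, a change of −0.56 (95% interval −0.77 to −0.35). The window of Fgf11 also holds Chrnb1 and Tmem102. Fgf15 changed by −0.55 (95% interval −0.75 to −0.35) and Fgf9 by −0.37 (95% interval −0.47 to −0.27). Among Wnt genes, Wnt6 changed by −0.47 (95% interval −0.65 to −0.30), Wnt8a by −0.43 (95% interval −0.62 to −0.25) and Wnt1 by −0.41 (95% interval −0.57 to −0.26). The intervals of these 6 genes overlapped one another, so no order among them was resolved. Wnt8a is known as a posterior signal of the early embryo, and Wnt6 from ectoderm.

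At the other end, Wnt16 had 1.69 in Dicer KO cells and 1.81 in Dicer KO/Dnmt1 cKO cells, a change of 0.10 (95% interval −0.11 to 0.31), and was the only Wnt gene with a positive value. Wnt2, a signal for the lung, had −0.11 (95% interval −0.24 to 0.03) and Wnt8b, which marks the forming hippocampus, had −0.12 (95% interval −0.25 to 0.00). Among Fgf genes the highest values were those of Fgf4 with 0.03 (95% interval −0.30 to 0.36), Fgf1 with 0.03 (95% interval −0.09 to 0.14) and Fgf10 with 0.00 (95% interval −0.11 to 0.11). All 6 intervals included 0. Fgf22, with 88 reads in Dicer KO cells and 64 in Dicer KO/Dnmt1 cKO cells, stayed under the minimum and had −0.11 (95% interval −0.60 to 0.37).

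**Figure D4:**
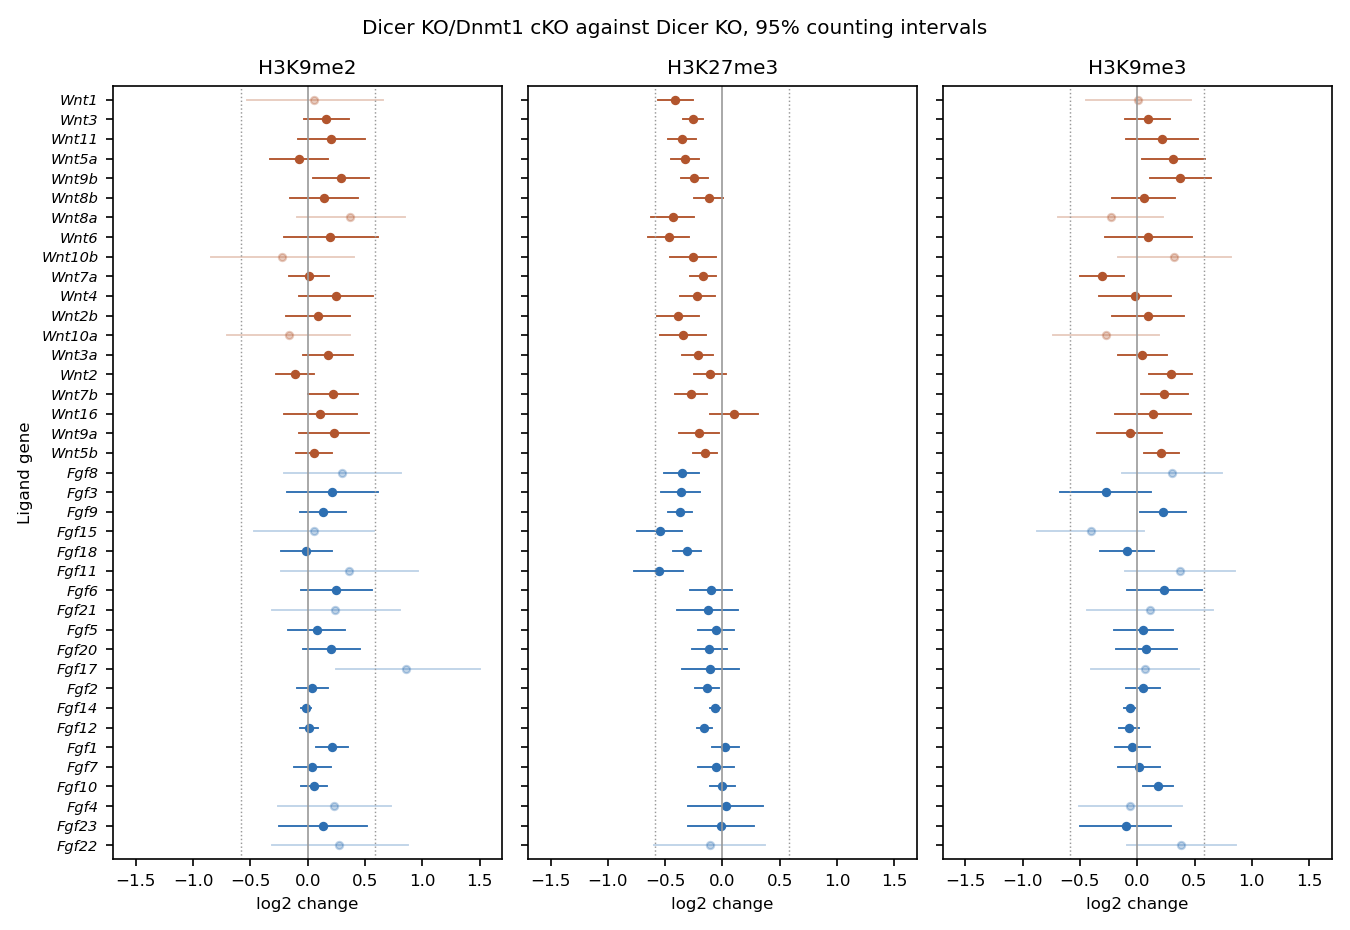
log2 change of the Dicer KO/Dnmt1 cKO against the Dicer KO (x axis) for each ligand gene and mark, with 95% counting intervals; Wnt genes are brown, Fgf genes blue, and faint points have under 200 reads. The dotted lines mark 1.5-fold; in H3K27me3, 35 of the 38 genes with enough reads lie left of 0, whereas in H3K9me2 most points lie right of it.

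The size of the H3K27me3 change followed the level, in the ligand genes and in all genes. Among protein-coding genes with a mean level under 0.5, the median change was 0.26 (3530 genes). It was −0.02 at levels from 1 to 2 (6267 genes), −0.14 from 2 to 4 (1942 genes) and −0.38 at 4 or more (222 genes). The members had −0.11 from 1 to 2 (17 genes), −0.32 from 2 to 4 (18 genes) and −0.36 at 4 or more (Wnt1, Wnt3 and Fgf8). In all, 16 of 19 Wnt and 11 of 19 Fgf genes lay below the median of the genes in their own band. Among protein-coding genes with enough reads, high windows thus tended to be lower and low windows higher in the Dicer KO/Dnmt1 cKO. A library with another share of background reads would also move high and low windows in opposite ways, which was not tested. Spearman's rho between mean level and change was −0.68 over 38 members and −0.59 over 17022 protein-coding genes. Pearson's r was −0.61 over these members and −0.03 over these protein-coding genes. Both quantities come from the same reads. The paper reports no genome-wide redistribution of H3K27me3 in the Dicer KO/Dnmt1 cKO.

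**Figure D5:**
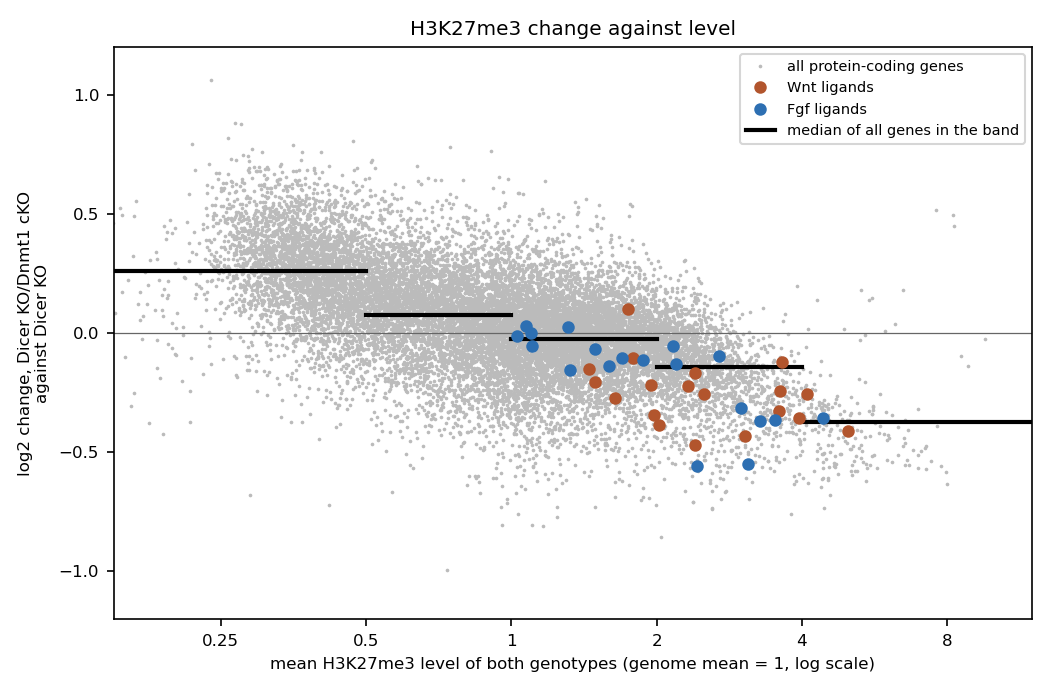
H3K27me3 change (y axis, log2) against the mean level of both genotypes (x axis, log scale, genome mean 1) for protein-coding genes with at least 200 reads (grey; a few lie outside the axes), Wnt genes (brown) and Fgf genes (blue). Black bars are the medians of all genes in each band of level; they go from 0.26 at the left to −0.38 at the right, and most ligand genes lie below the bar of their band.

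Among members with a mean start level from 2 to 4, those with CpG-rich starts had the lower median change, in a split made after their values were seen. The 10 with a CpG ratio of at least 0.6 had a median start change of −0.53, ranging from −0.76 to −0.16. The 11 under 0.6 had −0.13, ranging from −0.56 to 0.02. Wnt7a, a dorsal signal in the limb with a CpG ratio of 0.689, went from 528 to 245 reads at the start, a change of −0.76 (95% interval −0.98 to −0.53). Wnt8b, with a ratio of 0.326, went from 433 to 314 reads, a change of −0.11 (95% interval −0.33 to 0.10). The ranges overlapped, since Fgf5 (ratio 0.661) changed by −0.16 and Fgf11 (ratio 0.525) by −0.56. Protein-coding genes in the same band had medians of −0.36 at CpG-rich starts (842 genes) and −0.16 at the others (1922 genes). The CpG-rich members also had a higher median level in this band, 3.53 against 2.75. At a mean start level of 4 or more, the 4 CpG-rich members had −0.47 and the 4 others −0.46.

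H3K9me2 was near or below the genome mean over most ligand genes. The median level of the 39 windows was 0.833 in Dicer KO cells and 0.940 in Dicer KO/Dnmt1 cKO cells, against 0.749 and 0.837 over all protein-coding genes. No member reached 2 in either genotype, against backgrounds of 0.268% and 0.241% of protein-coding genes. The highest levels were those of Fgf14 with 1.68 and 1.66, Wnt2 with 1.57 and 1.46 and Fgf10 with 1.35 and 1.40, the Dicer KO first. Fgf7 (1.32 and 1.36), Wnt7a (1.27 and 1.28) and Wnt5a (1.12 and 1.06) also lay above 1. The lowest were Fgf17 with 0.289 and 0.525, Fgf11 with 0.359 and 0.460, Wnt10a with 0.388 and 0.345, Wnt10b with 0.394 and 0.338, Wnt1 with 0.444 and 0.461 and Fgf22 with 0.473 and 0.573. Levels tended to be higher over longer windows, such as the 355 tiles of Fgf14, and lower over short ones, such as the 9 tiles of Fgf17. There were exceptions, such as Wnt5b with 62 tiles and 0.763 and Fgf6 with 10 tiles and 1.18 in the Dicer KO. In the start tile the medians were 0.394 for Wnt and 0.552 for Fgf genes in the Dicer KO, and that of all protein-coding genes was 0.394.

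The pooled H3K9me2 change was 0.10 (95% interval 0.04 to 0.15) over Wnt genes and 0.03 (95% interval 0.00 to 0.06) over Fgf genes. Without Fgf12 and Fgf14, a choice made after seeing the data, the Fgf value was 0.11, above that of the Wnt genes. Within 5 kb of the starts the changes were 0.16 for Wnt and 0.18 for Fgf genes, so the order of the families depended on these choices. Over the whole windows, the difference of the Wnt minus the Fgf change, 0.06 (95% interval 0.00 to 0.13), included 0. Of 28 members with at least 200 reads, 24 had a positive change, with a median of 0.13 against 0.09 over protein-coding genes, of which 10708 of 15566 were positive. None changed by 1.5-fold, against 1.03% higher and 0.0385% lower. Beyond counting error 3 of 28 were higher, against 20.2%, and 0 were lower, against 3.76%. These 3 were Wnt9b, a kidney tubule signal, with 1.03 in Dicer KO cells (234 reads) against 1.26 in Dicer KO/Dnmt1 cKO cells (349 reads) and a change of 0.29 (95% interval 0.05 to 0.54), Wnt7b with 0.22 (95% interval 0.00 to 0.44), and Fgf1 with 0.21 (95% interval 0.07 to 0.35).

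Next to Wnt9b, the largest positive changes were those of Wnt4 with 0.25 (95% interval −0.08 to 0.57) and Wnt9a with 0.23 (95% interval −0.07 to 0.53), and in the Fgf family those of Fgf6 with 0.25 (95% interval −0.06 to 0.56) and Fgf3 with 0.21 (95% interval −0.18 to 0.62). The lowest were Wnt2 with −0.11, Wnt5a with −0.07 and Wnt7a with 0.01, and Fgf14 with −0.02, Fgf18 with −0.01 and Fgf12 with 0.01, all with intervals that included 0. Fgf17 went from 33 to 73 reads, a change of 0.86 whose interval began at 0.25, but has too few reads to be counted. Without a minimum of reads it was the only member past 1.5-fold, against 4.04% of protein-coding genes in either direction.

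H3K9me3 was likewise low, with a median level of 0.837 in Dicer KO cells and 0.912 in Dicer KO/Dnmt1 cKO cells, against 0.783 and 0.796 over protein-coding genes. No member reached 2, against 0.563% and 0.456%. Fgf14 was again highest, with 1.41 and 1.35, followed by Wnt7a with 1.17 and 0.944, Wnt2 with 1.16 and 1.42, Fgf12 with 1.09 and 1.04, Fgf7 with 1.06 and 1.07 and Wnt3 with 1.05 and 1.12. The lowest in the Dicer KO were Wnt10b with 0.512, Wnt10a with 0.536, Fgf11 with 0.536, Fgf17 with 0.617, Wnt6 with 0.630 and Fgf8 with 0.650.

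The pooled H3K9me3 change was 0.11 (95% interval 0.05 to 0.17) over Wnt genes and −0.02 (95% interval −0.05 to 0.02) over Fgf genes, and the difference between the families was 0.13 (95% interval 0.06 to 0.19). Without Fgf12 and Fgf14 the Fgf value was 0.069, and the difference from the Wnt genes was not computed for that choice, which was made after seeing the data. None of 28 members with at least 200 reads changed by 1.5-fold, against 0.0763% higher and 0.0954% lower. Beyond counting error, 7 of 28 were higher, against 8.03%, and 2 were lower, against 3.81%. The higher ones were 5 Wnt genes and 2 Fgf genes. Wnt9b had the largest value, 0.837 in Dicer KO cells (206 reads) against 1.09 in Dicer KO/Dnmt1 cKO cells (279 reads), a change of 0.38 (95% interval 0.11 to 0.64). Wnt5a changed by 0.32 (95% interval 0.04 to 0.59), Wnt2 by 0.29 (95% interval 0.11 to 0.48), Wnt7b by 0.23 (95% interval 0.03 to 0.44) and Wnt5b by 0.21 (95% interval 0.06 to 0.37). Wnt5a and Wnt5b are known for directing tissue elongation, and Wnt2 and Wnt7b for the lung. Fgf9 changed by 0.22 (95% interval 0.02 to 0.43) and Fgf10 by 0.18 (95% interval 0.05 to 0.31).

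The 2 lower members were Wnt7a, whose reads went from 480 to 404, a change of −0.31 (95% interval −0.50 to −0.12), and Fgf14 with −0.07 (95% interval −0.11 to −0.02). Wnt9a with −0.07, Wnt4 with −0.02, Fgf3 with −0.27, Fgf23 with −0.10 and Fgf18 with −0.09 had intervals that included 0, as did the positive value of Fgf6, 0.24. At the start of Fgf9 the direction was the opposite of that of its window, with −0.21 (95% interval −0.71 to 0.30).

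Seen together, Wnt9b and Wnt7b were higher beyond counting error in both H3K9 marks and lower in H3K27me3. For Wnt7b the H3K9me2 interval began at 0.001. Another scaling of the libraries lowered the H3K9me2 changes by 0.003, so this call for Wnt7b depended on the scaling. Across the 39 windows in the Dicer KO, Spearman's rho was 0.914 between the levels of H3K9me2 and H3K9me3, and −0.181 between those of H3K27me3 and H3K9me2. The levels of both H3K9 marks also went with the number of tiles, with rho of 0.743 and 0.694. These are descriptions over genes that share the libraries.

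The other genes of the pathways were measured in the same way, and their counts stand against the 10.4% of all protein-coding genes at a level of at least 2 in the Dicer KO. H3K27me3 reached 2 in the Dicer KO over 4 of 15 Wnt receptors and co-receptors (Fzd1, Fzd4, Fzd8 and Fzd10), 4 of 12 secreted Wnt antagonists (Dkk1, Dkk3, Sfrp5 and Sost), 2 of 6 genes for Wnt secretion and R-spondins (Rspo1 and Rspo4) and 4 of 17 genes of Wnt transduction and targets (Axin2, Lef1, Nkd1 and Sp5). It reached 2 over 1 of 7 Fgf receptors and co-receptors, Fgfr3, and over 0 of 9 Fgf feedback and target genes. The median levels were 1.08 for the Wnt receptors, 1.71 for the antagonists, 1.26 for secretion and R-spondins, 0.605 for transduction and targets, 1.35 for the Fgf receptors and 0.338 for Fgf feedback. All lay below the median of the ligands, 2.30.

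Among these genes, 3 changed by 1.5-fold in a mark. With at least 200 reads, 1 of 13 Wnt receptors and 1 of 15 transduction and target genes were lower in H3K27me3, against 0.535% of protein-coding genes. In H3K9me2, 1 of 4 Fgf feedback genes was higher, against 1.03%. Fzd8, a Frizzled receptor, had an H3K27me3 level of 2.13 in Dicer KO cells and 1.37 in Dicer KO/Dnmt1 cKO cells, a change of −0.64 (95% interval −0.91 to −0.37). Sp5, a target of Wnt signalling, had 5.00 in Dicer KO cells and 3.23 in Dicer KO/Dnmt1 cKO cells, a change of −0.63 (95% interval −0.80 to −0.46). Il17rd, an inhibitor of Fgf signalling, had an H3K9me2 level of 0.396 in Dicer KO cells and 0.620 in Dicer KO/Dnmt1 cKO cells, a change of 0.65 (95% interval 0.40 to 0.90). Lower H3K27me3 beyond counting error was found for 6 of 13 Wnt receptors with at least 200 reads, 3 of 11 antagonists, 1 of 5 genes of secretion and R-spondins, 3 of 15 of transduction and targets, 3 of 7 Fgf receptors and 1 of 7 Fgf feedback genes, against 13.0% of all protein-coding genes. Higher H3K27me3 beyond counting error was found for 1 of the Wnt receptors, 3 of the transduction and target genes and 2 of the Fgf feedback genes, and for none of the other lists, against 17.7%.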

How the data were processed

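H3K9me2, H3K27me3 and H3K9me3 were profiled by ChIP-seq in 6 libraries, 1 per mark and genotype. The authors trimmed reads with Trim Galore, aligned them to NCBIM37 with Bowtie2, discarded alignments with a MAPQ under 20 and quantified tiles in SeqMonk. The versions of Bowtie2 and SeqMonk are not given in the sources used here, and removal of duplicates is not described for these libraries. As deposited, the table holds log2 ratios of observed to expected reads per tile. The methods describe 1 kb tiles, while the rows of the table are 2 kb. Whole reads were recovered from the steps of the values, with tiles without reads at 0.9 of a step and a tolerance of 0.1 reads. Of 25 columns of values, 19 were not used here. Reads were summed over 1327469 tiles for the totals, and over the tiles of each gene window. Changes were computed with Python 3.11.15 and scipy 1.17.1, with exact Clopper-Pearson 95% intervals. A change was counted at 200 or more reads in both libraries together and called at 1.5-fold, and a level was called at 2. The scripts were checked on simulated reads. Gene bounds came from the NCBIM37 annotation, of which 22367 of 22380 protein-coding genes were used, without those of the mitochondrial genome. Named for each mark and family were the 3 highest and 3 lowest levels and the 3 largest changes in each direction, any member past 1.5-fold, the targeted genes, pathway genes past 1.5-fold, and the 3 members with the profile most like that of the highest one. Other members named beside them were added for comparison. The members and lists were chosen with earlier results of these data known.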

Additional observations from a re-analysis of the deposited data

How the results depend on the processing

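No paired analysis was possible because there were no replicates, with a single library for every mark in either genotype, and so none could be left out. Both other scalings, which moved all changes by at most 0.0136 on the log2 scale, windows extended by 10 kb and windows without shared tiles kept the direction of every family change, and moved none out of its counting interval. A minimum of 400 reads left the counts of changed members at 0, and without tiles at 0 in all 6 libraries 22 and 17 members had an H3K27me3 level of at least 2, in place of 23 and 19. Within 5 kb of the start, the pooled Wnt change was 0.16 in H3K9me2 and −0.42 in H3K27me3, the pooled Fgf change was 0.18 in H3K9me2, −0.31 in H3K27me3 and 0.026 in H3K9me3, and 29 members had an H3K27me3 level of at least 2 in the Dicer KO/Dnmt1 cKO. In the same windows, with at least 50 reads, 3 members changed by 1.5-fold in H3K9me2 (Wnt9a, Wnt9b and Fgf17, all higher, against 8.83% of protein-coding genes in either direction) and 2 in H3K27me3 (Wnt7a and Fgf9, both lower, against 8.64%). With no minimum of reads, 1 member, Fgf17, did so in H3K9me2. As the median of the members, the H3K9me2 change was 0.16 for Wnt and 0.078 for Fgf genes. Without the 1% of tiles with most reads, the Fgf change in H3K27me3 was −0.11. Without Fgf12 and Fgf14, an alternative chosen after seeing the data, the Fgf change was 0.11 in H3K9me2, −0.19 in H3K27me3 and 0.069 in H3K9me3, where it changed sign. The H3K9me3 change of Fgf9 was −0.21 at the start. Over the gene bounds alone, 35 of 36 values of named members stayed within their counting interval, and Wnt6 in H3K27me3 was −0.73. At the start 24 of 36 did. The cause of these differences was not tested. Depth limits the H3K9 marks most, since 11 of 39 members had under 200 reads in each of them.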
